A study of Mus musculus with 4 samples.

Results

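Keratins are the intermediate filament proteins of epithelial cells, and their transcripts were followed here in mouse fibroblasts on the way to induced pluripotent stem cells, with or without activation of the kinase AKT. The members were all non-control probes of the array whose gene name was Krt followed by a number and at most 1 letter. This gave 68 probes for 52 keratin genes, among 55681 probes for 34821 genes and transcripts on the array. The family was chosen because Krt6b and Krt16 stood among the largest rises with 4-hydroxytamoxifen (4OHT) in cells carrying AKT-MER. The values of that comparison, and of any other that uses the same array, are therefore descriptions of the selected genes and support nothing beyond themselves.

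Mouse embryonic fibroblasts (MEFs) of E13.5 were used, from pooled male embryos carrying an EGFP transgene under control of the Oct4 promoter (OE-MEFs). All cells received retroviral Oct4, Sox2 and Klf4 (OSK). The OSKA cells received in addition AKT-MER, a myristoylated AKT joined to a modified estrogen receptor that 4OHT switches on. From 3 days postinfection (dpi) the cells were given either 4OHT or its vehicle, and RNA was taken at 8 dpi. The 4 groups were OSK − 4OHT, OSK + 4OHT, OSKA − 4OHT (AKT-nonactivated cells) and OSKA + 4OHT (AKT-activated cells), each on 1 single-channel array, so no difference below has a replicate check and no test was run. The RNA came from whole infected cultures, in which fewer cells of a type and less RNA per cell cannot be told apart. The free-text description of the OSKA + 4OHT sample states that AKT-MER was not activated, against its title, and the title was followed.

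Each keratin filament is built from pairs of an acidic type I and a basic type II protein. Krt8, Krt18, Krt19 and Krt7 are the keratins of simple, single-layered epithelia. Krt5 and Krt14 belong to the basal layer of stratified epithelia, Krt1 and Krt10 to the layers above it, and Krt4 and Krt13 to internal stratified linings. Krt6a, Krt6b, Krt16 and Krt17 are known as stress keratins, since wounded or hyperproliferative epidermis switches them on. The remaining members build the inner root sheath and the hair shaft or stand outside these classes. Of the 52 genes, 28 encoded type I and 24 type II proteins. The classes held 4 simple, 4 stress, 16 stratified, 9 inner root sheath, 15 hair shaft and 4 other keratins.

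The keratins lie in clusters, and the array annotation (NCBI37, mm9) placed 36 of the probes on chromosome 11 and 31 on chromosome 15. Probes of Krt6b, Krt6a and Krt16, which had the 3 largest differences between the OSKA arrays, of their stress-class relative Krt17 and of Krt13, whose 2 probes are told apart later, are shown by their first 30 of 60 bases, written as in the scanner files, because related keratins can cross-hybridise and these letters state what was measured. Krt6b had a probe at chr15:101506492-101506551 (minus strand), named Krt6b probe 1 here, and another at chr15:101509450-101509509, named Krt6b probe 2. Krt6a was measured at chr15:101520862-101520921, Krt16 at chr11:100107408-100107467 and Krt17 at chr11:100117535-100117594. Krt13 had a probe at chr11:99980412-99980471 (probe 1) and one at chr11:99982471-99982530 (probe 2). All of these genes are on the minus strand.
Krt6b probe 1: cttgtgacaacacagtcattagtcctgtgc
Krt6b probe 2: accgtgaggcagaacctggagcctatgttt
Krt6a: agcaagaagagctacaggcagtgaattctg
Krt16: ccccatctgtctcccctaccctctcatggt
Krt17: ttgctgacctgaagtgaactgtggcctttg
Krt13 probe 1: aacaaggaagtatcctccaacgctgaaatg
Krt13 probe 2: ggcaacgagaagatcaccatgcagaacctc
Across the keratin probes, the longest run of bases shared by probes of different genes was 24, between Krt81 and Krt83, followed by 16 between Krt81 and Krt85. Krt6b probe 2 shared a run of 12 bases with a Krt5 probe. The match of each probe to the transcripts of related keratins was not analysed here.

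A level below is the log2 intensity of a probe over the 75th percentile of its array, and levels are compared only between arrays for the same probe. A probe was called well above background where the scanner software marked the majority of its spots so. At least 1 probe was well above background for 24 keratin genes in OSK − 4OHT, 20 in OSK + 4OHT, 22 in OSKA − 4OHT and 26 in OSKA + 4OHT cells. The first 3 counts are 46.2%, 38.5% and 42.3% of the family, while the shares over all genes lay between 59.0% and 61.7%. The call was made on all 4 arrays for 20 keratins, on 1 to 3 arrays for 8 and on none for 24. The 24 included Krt1 and Krt4, Krt17, 11 of the 15 hair shaft keratins and 5 of the 9 inner root sheath keratins. All 4 simple keratins and 3 of the 4 stress keratins were measurable on at least 1 array.

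**Figure D1:**
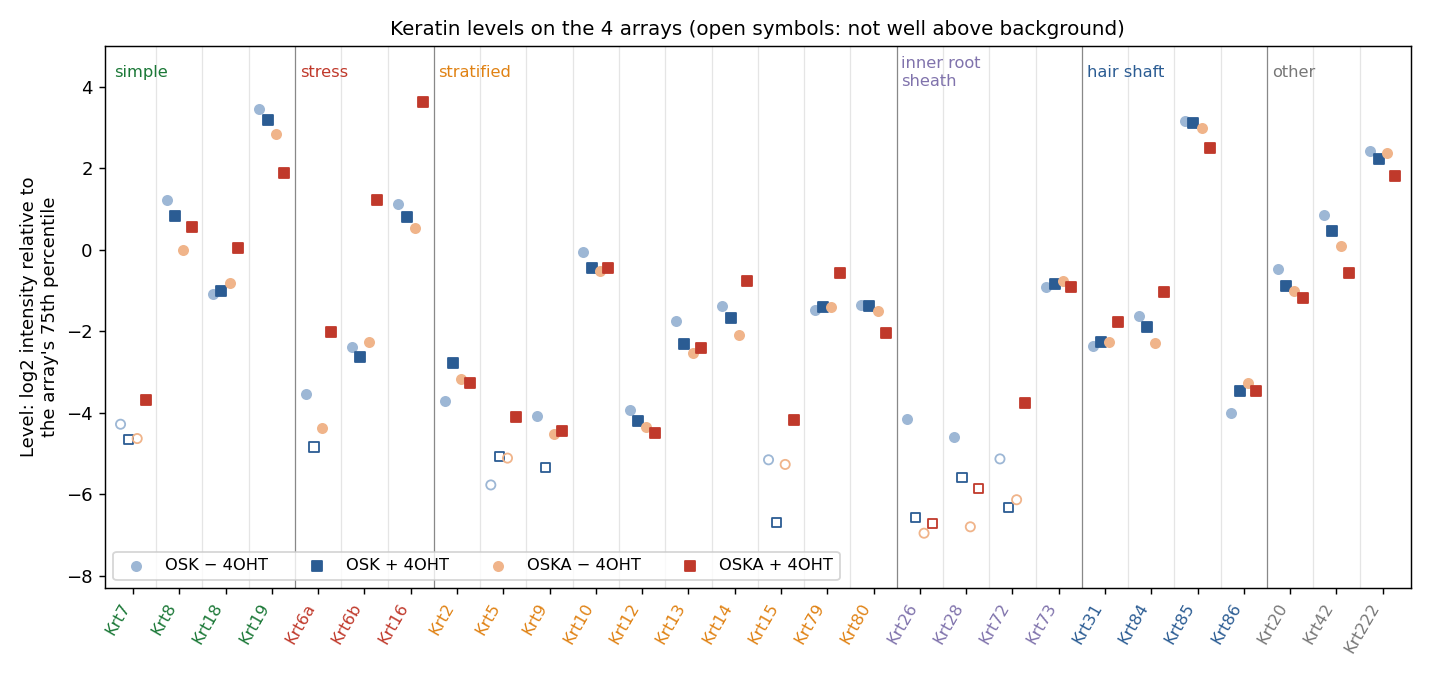
Levels of the 28 keratins that were well above background on at least 1 array, as log2 intensity over the array's 75th percentile (vertical axis), with 1 symbol per array and genes grouped by class. Filled symbols were well above background and open symbols were not. Krt6a, Krt6b and Krt16 stand highest in OSKA + 4OHT cells, while Krt19 and Krt42 stand lowest there.

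Of the stress keratins, Krt6a, Krt6b and Krt16 each stood highest in AKT-activated cells, and Krt17 could not be measured. Krt6b, a type II stress keratin, read 89.0 (OSK − 4OHT), 60.8 (OSK + 4OHT), 83.3 (OSKA − 4OHT) and 899 intensity units (OSKA + 4OHT) at probe 1. As levels these were −2.38, −2.63, −2.27 and 1.23, so that the first 3 arrays lay within a narrow range and the AKT-activated array stood far above them. Its 4OHT effect in OSKA cells, the OSKA + 4OHT array minus the OSKA − 4OHT array, was 3.50 on the log2 scale (11.3-fold, with an error of 0.21 from the error model of the scanner software). In OSK cells the 4OHT effect was −0.25 ± 0.23 (software error). Probe 2 of Krt6b, whose first bases are given above, was well above background in OSKA + 4OHT cells alone and was there at least 7.96-fold higher than in OSKA − 4OHT and at least 6.50-fold higher than in OSK + 4OHT cells. At such a probe only a bound could be given. With normexp background correction (a model-based subtraction of the local background, followed by an offset of 50 intensity units that shrinks the differences of dim probes, and by quantile normalization), probe 1 gave 2.80 in place of 3.50, and 3.31 without the offset.

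Krt16, the type I partner of the Krt6 proteins, read 1012, 653, 580 and 4691 intensity units in the same order of arrays. Its levels were 1.13, 0.79, 0.52 and 3.61. The 4OHT effect was 3.09 ± 0.20 (software error; 8.50-fold) in OSKA cells and −0.34 ± 0.20 in OSK cells. Among the 20300 genes measured on both OSKA arrays, Krt6b ranked 4 and Krt16 ranked 5 from the top by this difference. Those ranks restate how the family was chosen.

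Krt6a, which lies next to Krt6b, had levels of −3.54, −4.84, −4.37 and −2.03, and in OSK + 4OHT cells its probe was not well above background. The 4OHT effect in OSKA cells was 2.34 ± 0.31 (software error; 5.06-fold), a call lost with normexp and its offset and kept without the offset. In OSK cells Krt6a was at least 2.01-fold lower with 4OHT, a bound set by the lowest level that counted as well above background on that array, and against that array it was at least 5.72-fold higher in OSKA + 4OHT cells. Krt17, a type I stress keratin and the neighbour of Krt16, was not well above background on any of the arrays, with levels of −5.67, −5.72, −5.80 and −4.35. No difference was taken for it.

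Simple keratins went in different directions. Krt8, the type II keratin of simple epithelia, had levels of 1.22, 0.83, −0.01 and 0.55. It was lowest in OSKA − 4OHT cells, where it fell by 1.23 on the log2 scale against OSK − 4OHT cells (software error 0.20), and with 4OHT it was 0.56 ± 0.20 higher in OSKA cells. A further Krt8 probe gave −1.33 and 0.59 for the same comparisons. Krt18, the type I partner of Krt8, had levels of −1.08, −1.01, −0.81 and 0.05. Its 4OHT effects were 0.86 ± 0.21 (software error) in OSKA cells and 0.07 ± 0.21 in OSK cells, and it was 2.08-fold higher in OSKA + 4OHT than in OSK + 4OHT cells. That call was lost under scaling to the spike-in probes and with normexp, whether or not the offset was added.

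Krt19, a type I simple keratin that also marks mesothelium, went the other way. Its levels were 3.44, 3.17, 2.84 and 1.88, and the AKT-activated array was the lowest. The 4OHT effect in OSKA cells was −0.96 ± 0.20 (software error), just short of 2-fold, and −0.27 ± 0.20 in OSK cells. Against OSK + 4OHT cells the OSKA + 4OHT array was lower by 1.29 ± 0.20, past 2-fold. Krt7, a type II keratin of simple and glandular epithelia, was well above background in OSKA + 4OHT cells alone. It was there at least 1.92-fold higher than in OSKA − 4OHT and at least 1.80-fold higher than in OSK + 4OHT cells.

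Of the stratified keratins, Krt14, the basal-layer type I keratin, was past 2-fold between the OSKA arrays, a call lost with normexp and kept when the offset was left out. Its levels were −1.39, −1.67, −2.10 and −0.78, and the 4OHT effects were 1.33 ± 0.21 (software error) in OSKA cells and −0.28 ± 0.21 in OSK cells. Krt5, the basal type II partner of Krt14, was near the limit of measurement. It was well above background in OSKA + 4OHT cells alone (level −4.09), at least 1.75-fold above OSKA − 4OHT cells. Krt15, another basal type I keratin, behaved likewise, with a level of −4.17 there and a bound of at least 1.67-fold. A further Krt5 probe was not well above background on any of the arrays.

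Krt13 gave different answers at its 2 probes, both shown by sequence above. Probe 1, the brighter one over the 4 arrays together though not in OSKA + 4OHT cells, had levels of −1.74, −2.31, −2.54 and −2.41 and a 4OHT effect in OSKA cells of 0.12. Probe 2 had levels of −2.44, −3.08, −3.22 and −1.85 and a 4OHT effect of 1.37. In OSK cells the probes gave −0.58 and −0.64. The probes thus moved together between the OSK arrays and apart between the OSKA arrays, and Krt13 is counted below by probe 1.

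Krt10, a suprabasal type I keratin, had levels of −0.06, −0.45, −0.53 and −0.45, and its 4OHT effect in OSKA cells was 0.08. A further Krt10 probe, near background, gave −0.42. Krt1, the usual partner of Krt10, and Krt4, the usual partner of Krt13, were not well above background on any of the arrays. Krt79 had levels of −1.48, −1.40, −1.40 and −0.56, and its 4OHT effect in OSKA cells, 0.84 ± 0.21 (software error), stayed short of 2-fold. Krt80 had levels of −1.36, −1.38, −1.51 and −2.05, lowest in AKT-activated cells. Krt2 was highest in OSK + 4OHT cells, 0.95 above OSK − 4OHT, and Krt12, the corneal type I keratin, ranged from −4.49 to −3.94. A further probe of Krt2 and a further probe of Krt12 were not well above background on any of the arrays. Krt9, the palm and sole keratin, was well above background on all arrays but OSK + 4OHT and had a 4OHT effect in OSKA cells of 0.07.

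Most hair keratins could not be measured. Krt84 had levels of −1.62, −1.91, −2.29 and −1.03 and a 4OHT effect in OSKA cells of 1.27 ± 0.22 (software error), against −0.28 ± 0.22 in OSK cells, and its call too was lost with normexp and kept without the offset. Krt31 had levels between −2.35 and −1.78 with its highest value in OSKA + 4OHT cells. Krt86 moved from −4.02 in OSK − 4OHT cells to −3.27 in OSKA − 4OHT cells. Krt85, with levels of 3.16, 3.11, 3.00 and 2.50, was read by a probe without coordinates in the array annotation. A further Krt85 probe had levels between −1.56 and −1.18, and another was not well above background on any of the arrays. Of the inner root sheath keratins, Krt73 was flat, between −0.91 and −0.76. Krt72 was well above background in OSKA + 4OHT cells alone, at least 2.20-fold above OSKA − 4OHT and at least 1.72-fold above OSK + 4OHT cells. Krt26 and Krt28 were well above background in OSK − 4OHT cells alone.

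The measured members outside these classes, Krt42, Krt20 and Krt222, all read lowest in OSKA + 4OHT cells. Krt42, a type I keratin, had levels of 0.84, 0.47, 0.10 and −0.56, and was lower by 1.03 ± 0.21 (software error) in OSKA + 4OHT than in OSK + 4OHT cells, a call lost with normexp whether or not the offset was added. Krt20, known from intestinal and urothelial epithelium, had levels of −0.47, −0.89, −1.01 and −1.18. Krt222 had levels of 2.43, 2.22, 2.38 and 1.81. A further probe of Krt42 and a further probe of Krt222 were not well above background on any of the arrays. Krt23, the last of this group, was not well above background on any of the arrays.

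**Figure D2:**
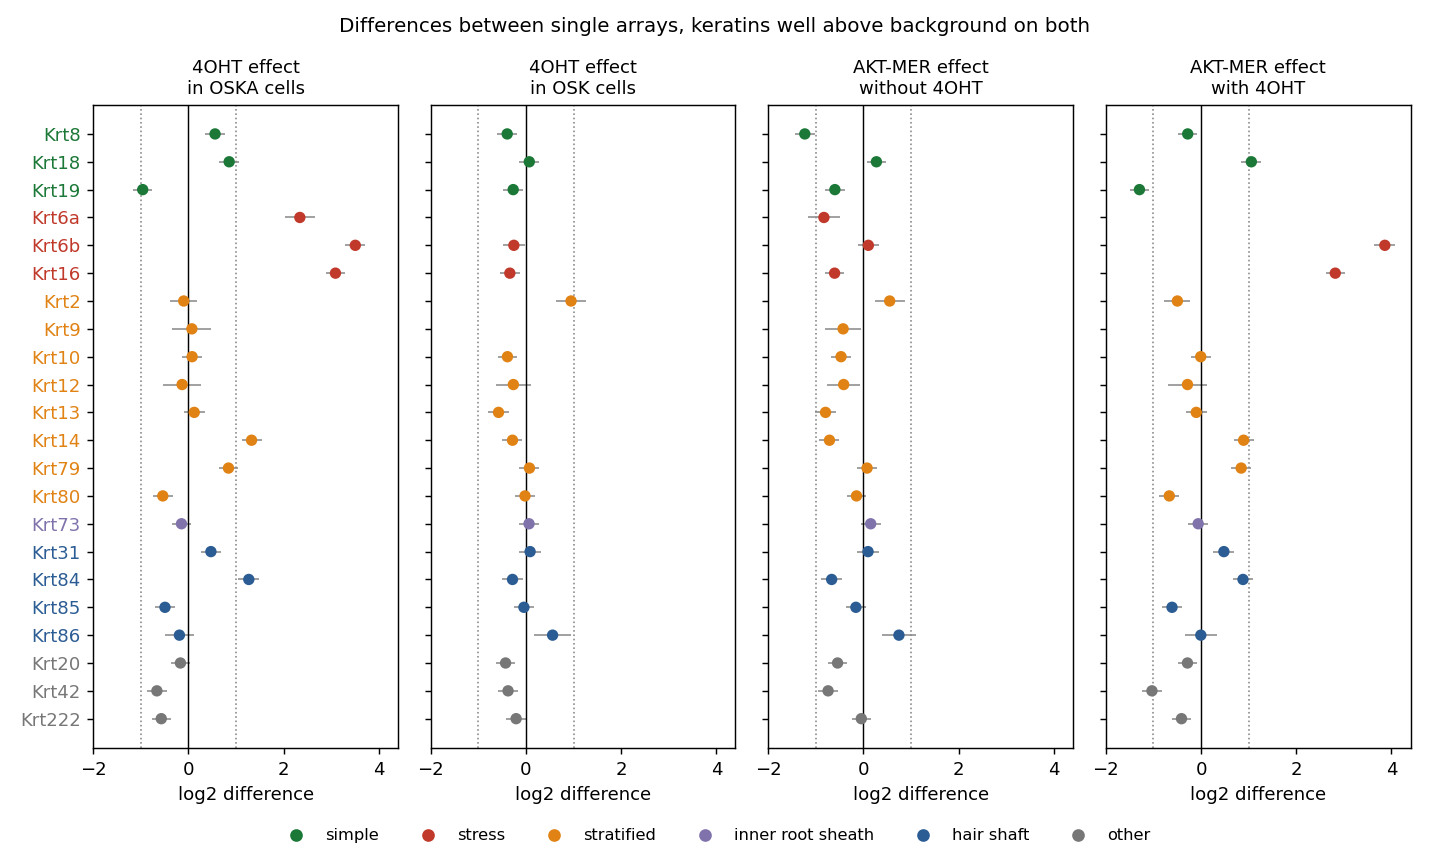
Log2 differences between single arrays (horizontal axes) for the keratins well above background on both arrays, with bars for the software error, colours for the keratin class and dotted lines at 2-fold. The values of Krt6b (3.50 and 3.86) and Krt16 (3.09 and 2.82) stand apart in both comparisons that use the OSKA + 4OHT array, and no keratin passes 2-fold for 4OHT in OSK cells.

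AKT activation is addressed by OSKA + 4OHT minus OSKA − 4OHT, the 4OHT effect in OSKA cells. Of 22 keratins that both arrays measured, 5 were at least 2-fold higher (Krt6a, Krt6b, Krt14, Krt16 and Krt84), where 2.01% of the 20300 genes measured were. None was at least 2-fold lower, where 0.901% of all genes were. Since the family was picked from this comparison, nothing is read from these shares. The members just inside 2-fold were Krt84 at 1.27 and Krt14 at 1.33, and those just outside were Krt18 at 0.86 and Krt79 at 0.84, with Krt19 at −0.96 on the lower side. The median over the 22 was 0.07 against −0.03 over all genes, with 12 keratins above 0 and 10 below. By class, the medians were 3.09 for the 3 stress keratins measured, 0.56 for 3 simple, 0.07 for 8 stratified, 0.14 for 4 hair shaft and −0.57 for 3 other keratins. Of 4 keratins well above background on 1 of these arrays only, Krt72 had a bound of at least 2-fold higher, a share to set beside 13.1% of all genes measured on 1 array. With normexp and its offset only Krt6b and Krt16 of the 5 were past 2-fold, and with normexp without the offset all 5 were. Adding the offset of 50 to the intensities used here, with no other change, left Krt6a, Krt6b and Krt16.

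The 4OHT effect in OSK cells asks what the ligand did without AKT-MER. None of the 20 keratins that both arrays measured was at least 2-fold higher (0.609% of 19861 genes were) and none was at least 2-fold lower (0.277%). The values ran from −0.58 for Krt13 to 0.95 for Krt2, with a median of −0.26 against −0.00 over all genes, and 6 of the 20 lay above 0, as did 49.4% of all genes. Krt6a was the single keratin with a bound of at least 2-fold lower, which 10.3% of all genes measured on 1 of the arrays had. Krt18, Krt31, Krt73, Krt79, Krt80 and Krt85 each differed by less than 0.10. This comparison shares no array with the 4OHT effect in OSKA cells. The difference between them was 3.76 for Krt6b, 3.43 for Krt16, 1.61 for Krt14 and 1.55 for Krt84 on the log2 scale, and it was not tested.

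The AKT-MER effect without 4OHT, OSKA − 4OHT minus OSK − 4OHT, asks what the fusion protein did before its ligand. Of 22 keratins, none was at least 2-fold higher (1.09% of 20183 genes were) and Krt8 was at least 2-fold lower (0.931% were). The median was −0.42 against −0.02 over all genes, and 7 of the 22 lay above 0, as did 47.0% of all genes. The values next to Krt8 on the lower side, all short of 2-fold, were those of Krt6a (−0.83), Krt13 (−0.80), Krt42 (−0.74), Krt14 (−0.71), Krt84 (−0.67), Krt16 (−0.61) and Krt19 (−0.60). Krt6b was nearly level at 0.10, and Krt86 (0.74) and Krt2 (0.55) lay above 0. Scaling to the spike-in probes, which lowered the median of all genes by 0.46 here, put 9 keratins past 2-fold lower, and 4.81% of all genes in place of 0.931%.

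The AKT-MER effect with 4OHT, OSKA + 4OHT minus OSK + 4OHT, shares an array with each 4OHT comparison. Of 20 keratins, 3 were at least 2-fold higher, namely Krt6b at 3.86, Krt16 at 2.82 and Krt18 at 1.06 (1.92% of 19846 genes were). Krt19 at −1.29 and Krt42 at −1.03 were at least 2-fold lower (1.12% were). With normexp, Krt6b was at 3.01 (3.63 without the offset), and the calls of Krt18 and Krt42 were lost in either case. Krt14 (0.89), Krt84 (0.88) and Krt79 (0.84) stayed short of 2-fold. The median was −0.08 against −0.05 over all genes. Krt6a alone had a bound of at least 2-fold higher, as did 12.5% of all genes measured on 1 of these arrays.

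Over the 20 keratins measured on all 4 arrays, the highest value fell on the OSK − 4OHT array for 10 and on the OSKA + 4OHT array for 7, namely Krt6b, Krt14, Krt16, Krt18, Krt31, Krt79 and Krt84. For all 19540 genes measured on 4 arrays these shares were 31.6% and 27.3%. The lowest value fell on the OSKA + 4OHT array for 7 keratins, which were Krt12, Krt19, Krt20, Krt42, Krt80, Krt85 and Krt222, and for 37.5% of all genes. It fell on the OSK − 4OHT array for 6 keratins and on the OSKA − 4OHT array for 6, and for 27.2% and 18.8% of all genes.

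**Figure D3:**
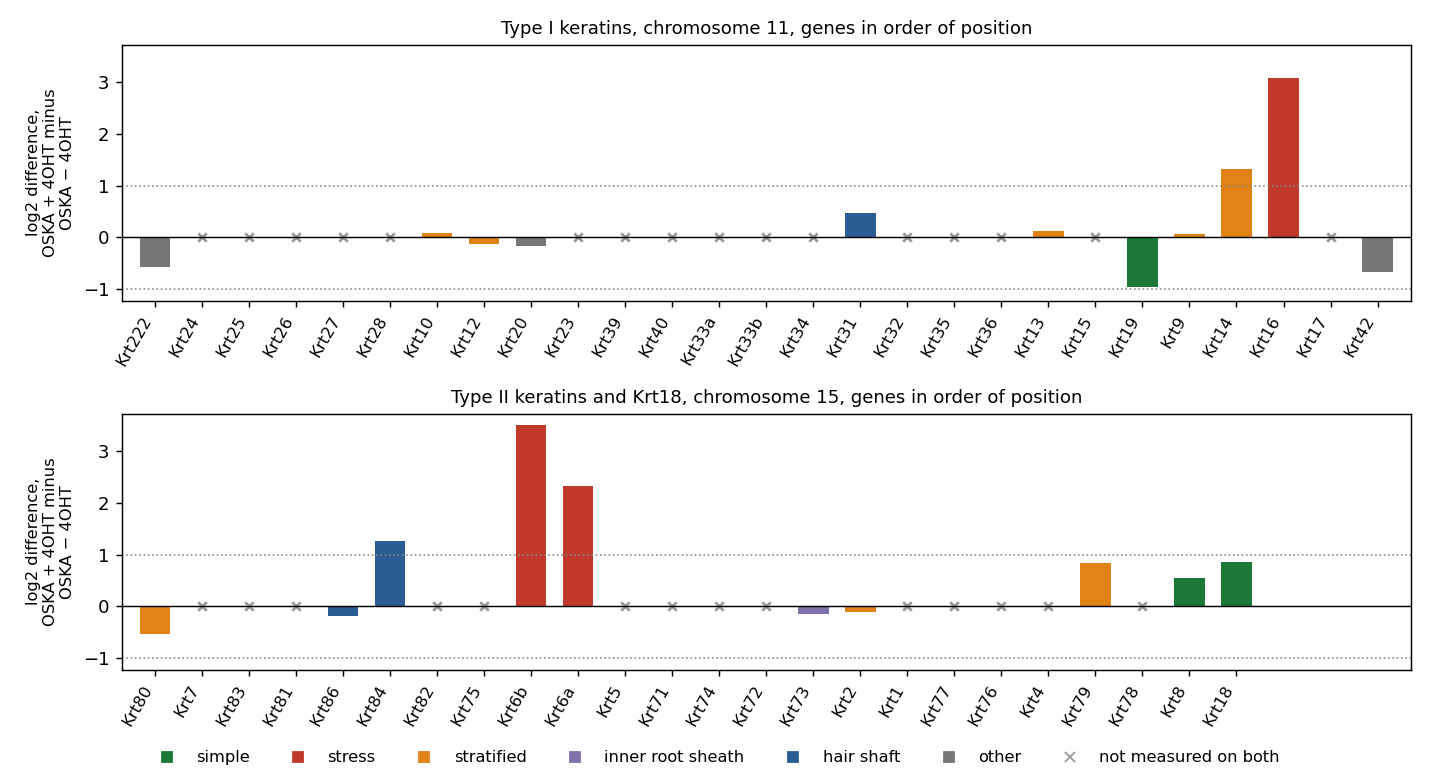
Log2 difference between OSKA + 4OHT and OSKA − 4OHT cells for keratin genes in their order along chromosome 11 (top) and chromosome 15 (bottom), with colours for the class, crosses for genes not well above background on both arrays and dotted lines at 2-fold. The bars past 2-fold stand at Krt14 and Krt16 on chromosome 11 and at Krt84, Krt6b and Krt6a on chromosome 15.

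Along the chromosomes, genes past 2-fold in AKT-activated cells stood beside genes that were not. On chromosome 11 the Krt14 and Krt16 probes were next to each other, 42.7 kb apart, while Krt17, 10.1 kb beyond Krt16, was not measurable, and the next gene, Krt42, was at −0.66 in the same comparison. On chromosome 15 the Krt6b and Krt6a probes were 14.4 kb apart, and Krt5 followed after 16.7 kb with only a bound. Krt8 and Krt18, a type II and a type I gene side by side at the end of the cluster, were at 0.56 and 0.86. The remaining riser, Krt84, stood between Krt86 at −0.19 and Krt82, which was not well above background on any of the arrays.

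The promoters of the family were searched for short motifs in the 250 bases before each start site in a RefSeq table (GRCm38.p6), which held 36 promoters of 35 keratin genes. The table held no entry for Krt6a, Krt6b, Krt16, Krt17 and Krt19. The letters TATAAA, searched on both strands, were in 17 of the 36 promoters and in 12.3% of all 32544 promoters of that length. TGANTCA, a loose form of the AP-1 motif that allows any middle base, was in both promoters listed for Krt13 and in no other keratin promoter. Of all promoters, 6.73% held it. The Krt13 promoter at chr11:100120578-100120827 matched as TGACTCA, and the one at chr11:100121567-100121816 only as TGAATCA. TGACNNNGC, the core of the antioxidant response element, was in 7 keratin promoters (10.2% of all), GCCNNNGGC, an AP-2 motif, in 4 (13.8%) and GGGCGG, the GC box, in 2 (33.0%). The 2 promoters in the table whose keratins were measured on both OSKA arrays and passed 2-fold there, Krt14 (chr11:100206031-100206280) and Krt84 (chr15:101532821-101533070), both on the minus strand, are printed with TATAAA on either strand in capitals. The promoter of Krt72, which had only a bound, also held TATAAA and is not printed.
Krt14: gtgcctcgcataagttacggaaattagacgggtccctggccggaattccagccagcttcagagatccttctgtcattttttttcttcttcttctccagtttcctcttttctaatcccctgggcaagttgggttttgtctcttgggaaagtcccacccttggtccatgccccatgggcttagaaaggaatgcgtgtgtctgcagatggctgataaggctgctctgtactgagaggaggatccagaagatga
Krt84: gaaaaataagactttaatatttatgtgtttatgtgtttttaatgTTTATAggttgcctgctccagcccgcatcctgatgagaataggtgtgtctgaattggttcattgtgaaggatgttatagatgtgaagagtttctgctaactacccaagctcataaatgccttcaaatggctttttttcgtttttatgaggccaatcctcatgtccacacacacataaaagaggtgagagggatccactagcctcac
Neither held the AP-1, antioxidant, AP-2 or GC box letters. Krt14 held no match to TATAAA, and the match in Krt84 began at position −206 from the start site.

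Genes that work with keratins were read from lists of other intermediate filaments, desmosomes, the cornified envelope, epidermal regulators and wound factors. Their counts stand beside 2.01% of all genes past 2-fold upward and 0.901% past 2-fold downward between the OSKA arrays, and beside 59.0% to 61.7% of all genes well above background per array, and nothing particular to a list is read from them. Desmosomes anchor keratin filaments at the cell surface. Of the 18 desmosome and linker genes, 11 were well above background on each array, and with 4OHT in OSKA cells 2 of the 10 measured were at least 2-fold higher and none lower (median 0.04). These were Dsp, desmoplakin, at 1.35 and Evpl, envoplakin, at 1.10, which without AKT-MER gave −0.69 and −0.43. The desmosomal cadherins Dsg1a, Dsg1b, Dsg2, Dsg3, Dsc1 and Dsc3 were not well above background on any of the arrays, and Dsc2 was so in OSKA + 4OHT cells alone. Jup, plakoglobin, was well above background on all arrays but OSKA + 4OHT, where it was at least 1.88-fold lower than in OSKA − 4OHT cells. Without 4OHT, all 11 measured members lay below 0 in OSKA against OSK cells, where 47.0% of all genes lay above 0 (median −0.52 against −0.02). Dsp at −1.17 and Evpl at −1.06 were among them, beside 0.931% of all genes at least 2-fold lower.

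Of the epidermal regulators, 2 of 12 measured were at least 2-fold higher with 4OHT in OSKA cells and none lower (median 0.02). Both were Grainyhead-like factors, which direct epidermal barrier genes. Grhl3 had levels of −3.74, −4.89, −4.28 and −1.80, the second not well above background, and a difference of 2.48. Grhl1 had levels of −3.04, −3.27, −3.78 and −2.25 and a difference of 1.53. Trp63, the master regulator of basal keratinocytes, was flat between 2.92 and 3.07 at the probe used here. Of 3 further Trp63 probes, only a probe that gave 0.54 could be compared between the OSKA arrays. Klf5 was at −0.93.

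The cornified envelope, the protein shell of dying keratinocytes, was mostly unmeasured, with 8 of 29 genes well above background in OSKA + 4OHT cells and 11 in OSK − 4OHT cells. Of 7 measured on both OSKA arrays, 1 was at least 2-fold higher, Tgm5, a transglutaminase that cross-links the envelope, at 2.49 (median 0.41). A further probe of Tgm3, another transglutaminase, gave 1.73, while the brighter one used here gave 0.00. Ivl, involucrin, was not well above background on any of the arrays, and Lor, loricrin, was so on all arrays but OSKA + 4OHT. Sprr2a2, also of this list, was bright throughout, with levels of 8.06, 8.20, 8.09 and 7.88 and a 4OHT effect in OSKA cells of −0.21. Among wound factors and alarmins, 2 of 7 were higher and 1 lower (median 0.27). Slpi, a secreted protease inhibitor, was at 2.15, Lcn2, lipocalin, at 1.09 and Hbegf, an EGF receptor ligand, at −1.07. The alarmins S100a8 and S100a9 and the cytokine Il1a were not well above background on any of the arrays.

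Other intermediate filaments gave 3 of 14 at least 2-fold higher with 4OHT in OSKA cells and none lower (median 0.13). They were the neurofilaments Nefm at 2.99 and Nefl at 1.57, and peripherin (Prph) at 1.26. Nefm had levels of −4.51, −4.82, −3.92 and −0.93, with OSK + 4OHT not well above background, a bound of at least 12.2-fold between the OSK + 4OHT and the OSKA + 4OHT arrays. Nefl, at −1.34, −1.54, −1.19 and 0.38, was also highest in AKT-activated cells. Vim, vimentin, the main filament of fibroblasts, changed little (8.24, 8.16, 8.01 and 7.76), and the lamins Lmna and Lmnb1 were at −0.08 and 0.27.

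**Figure D4:**
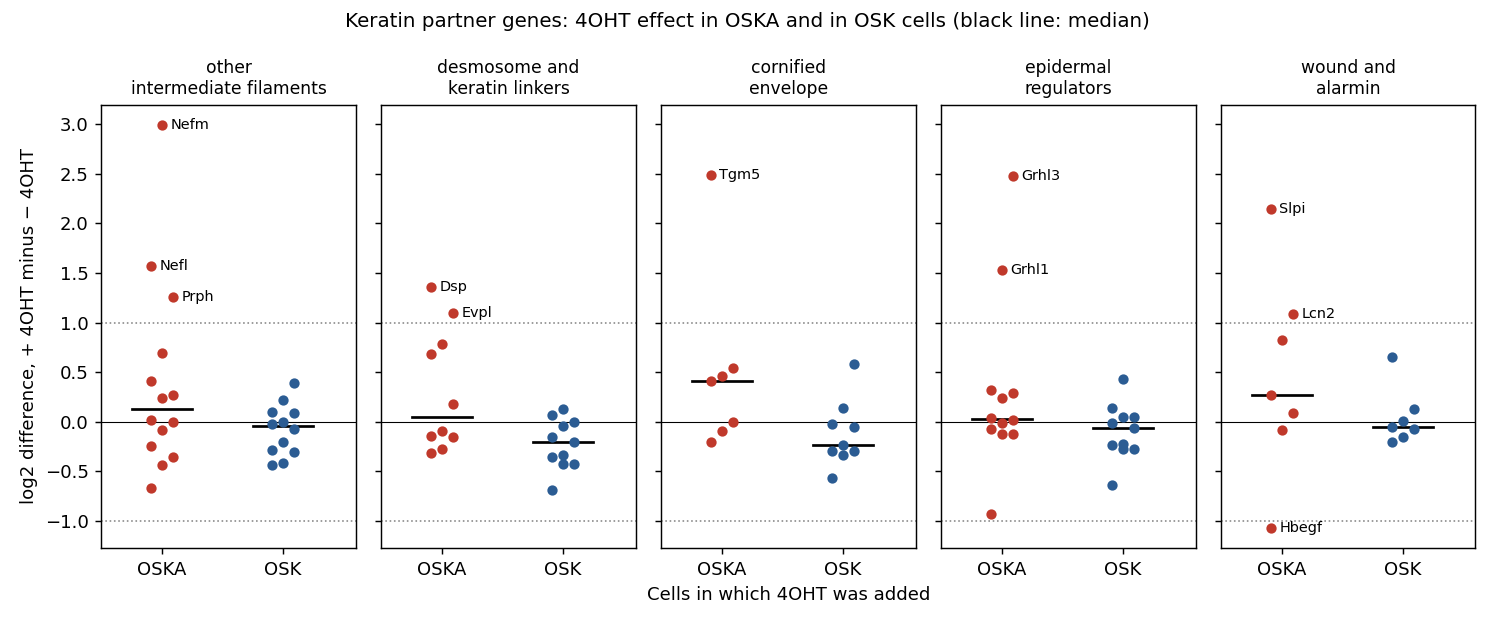
Log2 difference with 4OHT minus without 4OHT (vertical axis) for the measured genes of 5 lists of keratin partners, in OSKA cells (red) and OSK cells (blue), with black lines at the medians and dotted lines at 2-fold. Named genes passed 2-fold, and all of them did so in OSKA cells.

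Markers of the cells that such cultures could hold were read beside these results. All 13 fibroblast markers were well above background on every array, with a summed intensity, in units of the 75th percentile of the array, of 1852 to 2073. Of 10 keratinocyte markers, 3 of which are keratins, 5 were well above background on the first 3 arrays and 7 in OSKA + 4OHT cells, and the sums were 30.8, 25.2, 21.9 and 27.4. Of the 5 measured on both OSKA arrays, 4 lay above 0 (median 0.42): Krt14, Pkp1, plakophilin, at 0.78, Itgb4, an integrin of hemidesmosomes, at 0.42, and Sfn at 0.01, while Trp63, the regulator of stratified epithelia, was at −0.08. Dsg3, Dsc3 and Col17a1 were not well above background on any of the arrays. Epithelial markers gave 7, 9, 9 and 9 of 12 with sums of 2.62, 2.28, 1.95 and 2.72. The brightest of them in OSKA + 4OHT cells was Cldn3, a tight junction protein, with levels of −0.38, −0.81, −1.39 and 0.13. Cdh1, E-cadherin, was at −0.81, −1.40, −1.86 and −1.99, lowest in OSKA + 4OHT cells, so the sums do not rank the arrays by epithelial content. Of 9 epithelial markers measured with 4OHT in OSKA cells, 5 lay above 0 (median 0.06). Among these 9, 1 was at least 2-fold higher and 1 lower, Cldn3 at 1.52 and Esrp1, an epithelial splicing regulator, at −1.27.

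Mesothelial markers gave 5, 5, 6 and 7 of 7, with sums between 76.2 and 79.4 on the first 3 arrays and 52.4 in OSKA + 4OHT cells. Their directions were mixed: of 6 measured on both OSKA arrays 3 lay above 0 and 3 below. Between these arrays Cpe, carboxypeptidase E, went from a level of 5.77 to 5.35 and Msln, mesothelin, from 4.41 to 3.41, where Krt19 went from 2.84 to 1.88. The differences of Bnc1, Upk1b and Upk3b were 1.69, 1.54 and 1.02, and Lrrn4 was at least 4.05-fold higher. Trophoblast markers gave 4, 3, 3 and 4 of 9 with sums of 1.24 to 1.47, and Cdx2, Elf5, Eomes and Hand1 were not well above background on any of the arrays. All 6 leukocyte markers were well above background throughout, with a sum of 140 in OSK − 4OHT cells and 187 to 204 on the other arrays. The OSK − 4OHT array, which had the lowest leukocyte sum, is also the one on which 10 of 20 keratins were highest and 6 were lowest. The part of any of these cell types in the keratin values was not tested.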

How the data were processed

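RNA of 4 samples, 1 per group, was labelled with Cy3 from 100 ng and hybridised to single-channel Agilent arrays. The deposited scanner files hold an intensity per spot on a linear scale, which the authors obtained with Feature Extraction 10.7.3.1 (background-subtracted and detrended; not normalized between arrays). The deposited series matrix repeats these values, rounded. All arrays were on 1 slide, and slide position cannot be told apart from group.

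Spots marked as uneven or as outliers were left out (104 to 155 per array), log2 intensities were set relative to each array's 75th percentile (377 to 462 units), and spots of a probe were averaged. The log2 values were computed here from the deposited intensities. No keratin spot was saturated. A gene was represented by its brightest probe over the 4 arrays. A log2 difference needed both arrays well above background; with 1 array, an at-least bound was taken, from the brighter level down to the dim level or, if higher, the lowest level well above background. Calls were made at 2-fold. With 1 array per group no test was run and no p-value is given, and precision is limited by the number of arrays. The median software error of a difference was 0.20, and repeated spots had a median SD of 0.058 to 0.067. Both cover the measurement on 1 array only. A probe for Esr1, part of AKT-MER, was at least 219-fold higher in OSKA − 4OHT than in OSK − 4OHT cells and at least 233-fold higher with 4OHT. Of the other 3 Esr1 probes, 1 read −4.20 and −4.15 without 4OHT, and 2 were not well above background on any of the arrays.

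By rule, the keratins named were the simple and stress keratins, Krt1, Krt4, Krt5, Krt10, Krt13, Krt14 and Krt15, and those measured on all arrays or past 2-fold in any comparison. Partner genes past 2-fold in the 4OHT effect in OSKA cells were named with defining markers. Some keratins outside this rule, such as Krt9, Krt23, Krt26 and Krt28, were also named. The members, lists and this rule were chosen with earlier results of these data known. Of the 68 probes, 62 matched a RefSeq symbol by accession, 61 of them the array's name. Python 3.11.15, pandas 2.3.3 and limma 3.58.1 in R 4.3.3 (alternatives) were used. The difference rule was tested on simulated data, and the rule for at-least bounds was not. Markers of pluripotent and endothelial cells were also read: 7 of 10 and 3 of 6 were well above background on every array. The pluripotent sums were 14.7, 13.8, 11.1 and 15.6. Between the OSKA arrays 4 of 7 pluripotent markers lay above 0 (median 0.37). Of these 7, Fbxo15 at 1.29 was at least 2-fold higher and 0 were lower, beside 2.01% and 0.901% of all genes. The endothelial sums were 8.05, 11.9, 8.95 and 10.2, and 1 of 3 lay above 0. No deposited columns of other samples were present.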

Additional observations from a re-analysis of the deposited data

Results flagged for a closer look

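For 4 of the 5 keratins past 2-fold, the 4OHT effect was above 0 in OSKA cells and below 0 in OSK cells. The family was chosen from the OSKA values, so the upward side was fixed in advance. In OSK cells 14 of the 20 keratins measured lay below 0 (median −0.26), so that side was not particular to these 4. The software errors of their OSK values were 0.20 to 0.23. Their effects in OSKA and OSK cells were 3.50 and −0.25 for Krt6b, 3.09 and −0.34 for Krt16, 1.33 and −0.28 for Krt14, and 1.27 and −0.28 for Krt84. The effects differed by 3.76 for Krt6b, by 3.43 for Krt16, by 1.61 for Krt14 and by 1.55 for Krt84 on the log2 scale. With 1 array per group the difference was not tested. The effects of these 4 in OSK cells were all short of 2-fold, and over the alternatives that of Krt6b ran from −0.55 to −0.06 and that of Krt16 from −0.64 to −0.31. The fifth, Krt6a, at 2.34 in OSKA cells, was at least 2.01-fold lower with 4OHT in OSK cells, a bound from which no difference of the effects was taken.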

How the results depend on the processing

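Percentages below are the shares of all genes called under the same setting. A count is taken as near the main one within 1.5 times, and a median or difference within its software error (0.20 to 0.23). By that measure, of the counts and medians, 125 values under the alternatives stayed near and 31 moved, and for Krt6b and Krt16 63 stayed and 9 moved. Normexp stands for normexp with an offset of 50 and quantile normalization. Normexp without the offset, and the offset alone added to the main intensities, were chosen after seeing the data. The cause of a move was not tested unless stated. No difference of Krt6b or Krt16 past 2-fold changed sign. Smaller values did: Krt6b for AKT-MER without 4OHT went from 0.10 to −0.36 under spike-in scaling, and 2 medians for AKT-MER with 4OHT are given below. Krt6b was at 2.80 for 4OHT in OSKA cells with normexp, 3.31 without its offset and 2.90 with the offset alone, and at 3.01, 3.63 and 3.08 for AKT-MER with 4OHT. Of keratins at least 2-fold higher with 4OHT in OSKA cells, 2 in place of 5 were called with normexp (0.838%), 5 with normexp without the offset (1.57%), 3 with the offset alone (0.931%), 12 without the filter on dim probes (5.41%), 7 at 1.5-fold (5.06%) and 4 with the filter on all 4 arrays (1.75%), which leaves out Krt6a. At least 2-fold lower were 2 in place of 0 without the filter (4.18%) and 2 at 1.5-fold (4.64%). For 4OHT in OSK cells, higher calls went from 0 to 1 without the filter (3.65%) and 1 at 1.5-fold (4.33%), and lower calls from 0 to 6 without the filter (3.47%). For AKT-MER without 4OHT, higher calls went from 0 to 2 without the filter (4.22%) and 1 at 1.5-fold (5.66%), and lower calls from 1 to 9 under spike-in scaling (4.81%), 7 without the filter (4.37%) and 8 at 1.5-fold (3.99%). For AKT-MER with 4OHT, higher calls went from 3 to 10 without the filter (4.90%), 6 at 1.5-fold (5.46%) and 2 with normexp (0.907%), without its offset (1.51%), with the offset alone (0.952%) and with spike-in scaling (1.59%), and lower calls from 2 to 1 with normexp (0.312%), without its offset (0.695%) and with the offset alone (0.383%), and 4 at 1.5-fold (5.10%). A lower threshold calls more genes by construction, and without the filter 52 keratins enter. The median of the stratified and stress keratins for 4OHT in OSKA cells went from 0.12 to 0.54 without the filter and 0.74 with the mean of all probes. For 4OHT in OSK cells, spike-in scaling, which moved the median of all genes by −0.30, moved the median of the simple keratins from −0.27 to −0.57 and that of the stratified and stress keratins from −0.27 to −0.56. For AKT-MER without 4OHT, the simple median went from −0.60 to −1.06 under spike-in scaling (median of all genes moved by −0.46), and the stratified and stress median from −0.43 to −0.13 with normexp, −0.086 with the offset alone, −0.89 under spike-in scaling and −0.20 without the filter. For AKT-MER with 4OHT, the simple median went from −0.28 to 0.35 without the filter, and the stratified and stress median from −0.01 to 0.87 without the filter and 0.57 with the mean of all probes. Calling a gene above background at a signal over 2 times the negative control median gave 33, 28, 33 and 34 keratins in place of 24, 20, 22 and 26. The share of all genes under that rule is not given here, so nothing about the family is read from these counts. No paired analysis was possible because each group had 1 array and no replicate to pair. The dim keratins, 24 of 52 on every array, set the limit of what could be compared.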
